A study of Mus musculus with 24 samples.

Results

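The comparison set the livers of 6 mice kept on the standard pellets on which they had been raised against those of 18 mice moved to another food, and so used all 24 arrays of the series. Members were chosen by the diet in the sample titles. The 18 mice comprised 6 on the chimpanzee diet (fruit, vegetables and yogurt as served to captive apes), 6 on the cafeteria diet (cooked staff meals) and 6 on the fast food diet (fast food only). These 3 diets are called the new diets. All animals were female NMR-1 mice, aged 8 weeks at the start and killed after 2 weeks of free feeding, and each diet had 3 mice in batch 1 and 3 in batch 2 of RNA processing. Each array was 1 mouse, so the spread is between animals. The pellet mice kept their familiar food while every other mouse changed food, so that a response to leaving pellets and a response to pellets as such cannot be told apart. The hour of dissection, food intake and body weight were not analysed here.

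The liver takes up what the gut delivers and turns between storing and burning fuel. PPARA, a nuclear receptor that senses fatty acids, switches on genes of fatty acid oxidation, while SREBP factors switch on genes of cholesterol and fatty acid synthesis. Secreted proteins are folded in the endoplasmic reticulum (ER), whose chaperones rise and fall with the folding load, and liver clock genes are set in part by feeding. Gene lists for these and other processes are described below by how many measured members changed.

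A gene was called when its limma adjusted p was under 0.05, with batch in the fit. Among 13384 genes tested, 860 (6.43%) were called, 311 of them higher on the new diets (2.32%) and 549 lower (4.1%). All 860 had the same direction in both batches, which follows in part from calling them on both batches together and is no replication. In batch 1 alone 579 genes were called, and in batch 2 alone 62. The median difference of the called genes, in log2 units, was 0.50 for those that rose and −0.50 for those that fell, against −0.00406 over all genes, and 94 called genes (36 up and 58 down) differed by more than 2-fold. For 179 genes (1.34%), all of them called, the 9 new diet mice lay on 1 side of the 3 pellet mice in each batch, 64 above (0.478%) and 115 below (0.859%). These counts describe the separation and carry no test. In total, 150 called genes had a group mean within 1 log2 unit of the level used to filter low signals, where the floor of the array limits how low a value can read.

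The balance between rises and falls depended on how the arrays were scaled. As deposited, 36.2% of the calls were rises. This share was 46.7% after quantile normalization (1295 calls), 47.8% after cyclic loess (1388 calls) and 50.6% with the 90th percentile of each array as a covariate (1531 calls). It was 57.6% (1244 calls) without the 4 arrays of lowest 90th percentile, which were all from new diet mice in batch 2. The 90th percentile itself was 6.26 ± 0.295 (SD, n = 18) on the new diets and 6.32 ± 0.234 (n = 6) on pellets (exact permutation within batches, two-sided p = 0.453). The signal at the 3′ end of beta-actin over that at its 5′ end, a measure of RNA integrity, was 0.929 ± 0.162 (n = 18) against 0.754 ± 0.135 (n = 6), a difference of 0.174 (exact permutation p = 0.0277, adjusted over 3 array measures 0.083). By diet it was 1.08 ± 0.15 on the chimpanzee diet, 0.906 ± 0.0544 on the cafeteria diet and 0.80 ± 0.126 on the fast food diet (n = 6 each), so that the chimpanzee diet mice stood farthest from the pellet mice. With this measure as a covariate, 552 genes were called (276 in each direction), and 479 of the 860 were among them. Its part in the results was not tested beyond this fit, and list counts that moved with it by more than 1.5 times are given with their lists.

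**Figure D1:**
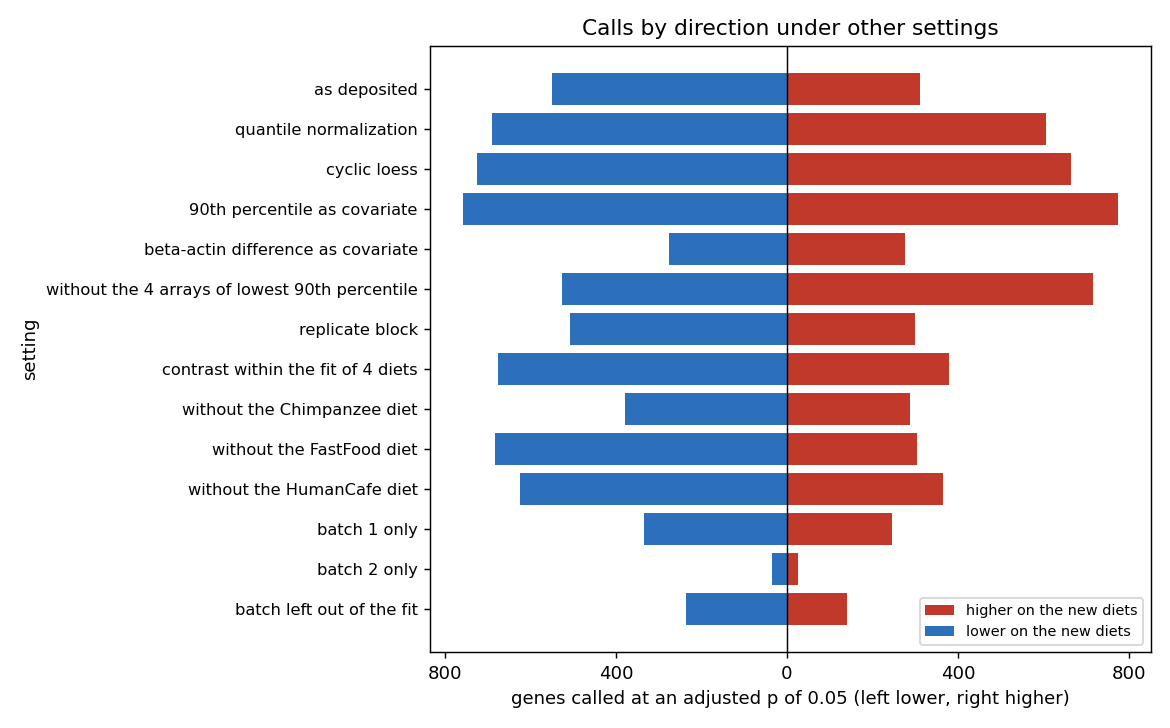
Genes called higher (right, red) and lower (left, blue) on the new diets than on pellets, as counts, for the deposited values and for 13 other settings. The bars were longer to the left as deposited (549 against 311) and longer to the right only with the 90th percentile as a covariate (774 against 757) and without the 4 arrays of lowest 90th percentile (717 against 527).

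The tissue carried its label. Of 11 hepatocyte marker genes measured, 0 were called by limma (3 had an unadjusted p under 0.05), and the pellet mean of albumin (Alb) was 12.78 on an array whose highest value was 13.01. In whole tissue, fewer cells of a type and less RNA per cell cannot be told apart.

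Among the genes whose smallest difference over the 3 new diets was largest, the 14 leading rises and 14 leading falls share a response of more than 1 log2 unit on every new diet. Usp2, a clock-driven ubiquitin protease, lay between 3.84 and 5.46 in the pellet mice (median 4.55) and between 6.50 and 7.91 in the new diet mice (median 6.92). No new diet mouse overlapped the pellet range. The difference was 2.36 ± 0.17 (SE; adjusted p = 2.88e-09), with 2.34 on the chimpanzee diet, 2.21 on fast food and 2.54 on cafeteria food. Ethe1, a mitochondrial enzyme that detoxifies sulfide, ran the other way: its pellet values were 8.43 to 9.29 (median 8.79) and its new diet values 6.53 to 7.67 (median 7.0). It had the smallest p of all genes named (−1.80 ± 0.12, adjusted p = 4.64e-10). The falls of Ethe1 were −1.81, −1.81 and −1.77 on the chimpanzee, fast food and cafeteria diets, and the 95% interval of a difference between new diets reached at most 0.36.

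The other leading rises included enzymes and carriers of lipid metabolism. They were Cyp4a14 (a fatty acid omega-hydroxylase), Vnn1 (pantetheinase), Acot1 (an acyl-CoA thioesterase), G0s2 (an inhibitor of triglyceride lipase), Mfsd2a (a carrier of lysophospholipids) and Pex11a (a peroxisome division factor). Dio1, which activates thyroid hormone, rose by 1.80 ± 0.38 (adjusted p = 0.00324), from a pellet range of 3.76 to 4.96 to a new diet range of 4.75 to 7.82, so the ranges overlapped. Noct, a rhythmic phosphatase, rose by 1.64 ± 0.29, and Etfbkmt, a mitochondrial lysine methyltransferase, by 1.61 ± 0.18. Rhobtb1 rose from a pellet range of 5.91 to 6.54 to a new diet range of 6.74 to 8.41, without overlap. Asic5, an ion channel subunit, rose by 1.40 ± 0.37 (adjusted p = 0.0179), and lost its call without pellet batch 1 replicate 3 or batch 2 replicate 3 (adjusted p 0.0704 and 0.0963).

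Falls of similar size concerned lipid handling, transport across membranes and signalling. Fabp5, a fatty acid binding protein, lay at 10.63 to 11.21 (median 11.02) in pellet mice and at 6.71 to 9.92 (median 8.40) on the new diets, the largest mean fall among these genes (−2.59 ± 0.34). Rdh11, a retinal reductase, lay at 7.58 to 8.39 in pellet mice and 3.98 to 7.01 in the others. Both were without overlap. Cldn1, a tight junction protein, fell (−1.78 ± 0.24), as did Aqp8, a water channel of the bile canaliculus (−1.86 ± 0.24), and the kinases Sgk2 (−1.38 ± 0.17) and Camk1d (−1.42 ± 0.17). Dntt, a template-independent DNA polymerase known from lymphocytes, fell by 1.61 on the log2 scale. Of 8 measured lymphocyte markers 0 were called (limma; 1 had an unadjusted p under 0.05), with a median difference of −0.01. All but Cd3e had a group mean below the filter level of 3.15 or within 1 log2 unit above it, where a fall could hardly be seen, and the part of these cells in the fall of Dntt was not tested.

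**Figure D2:**
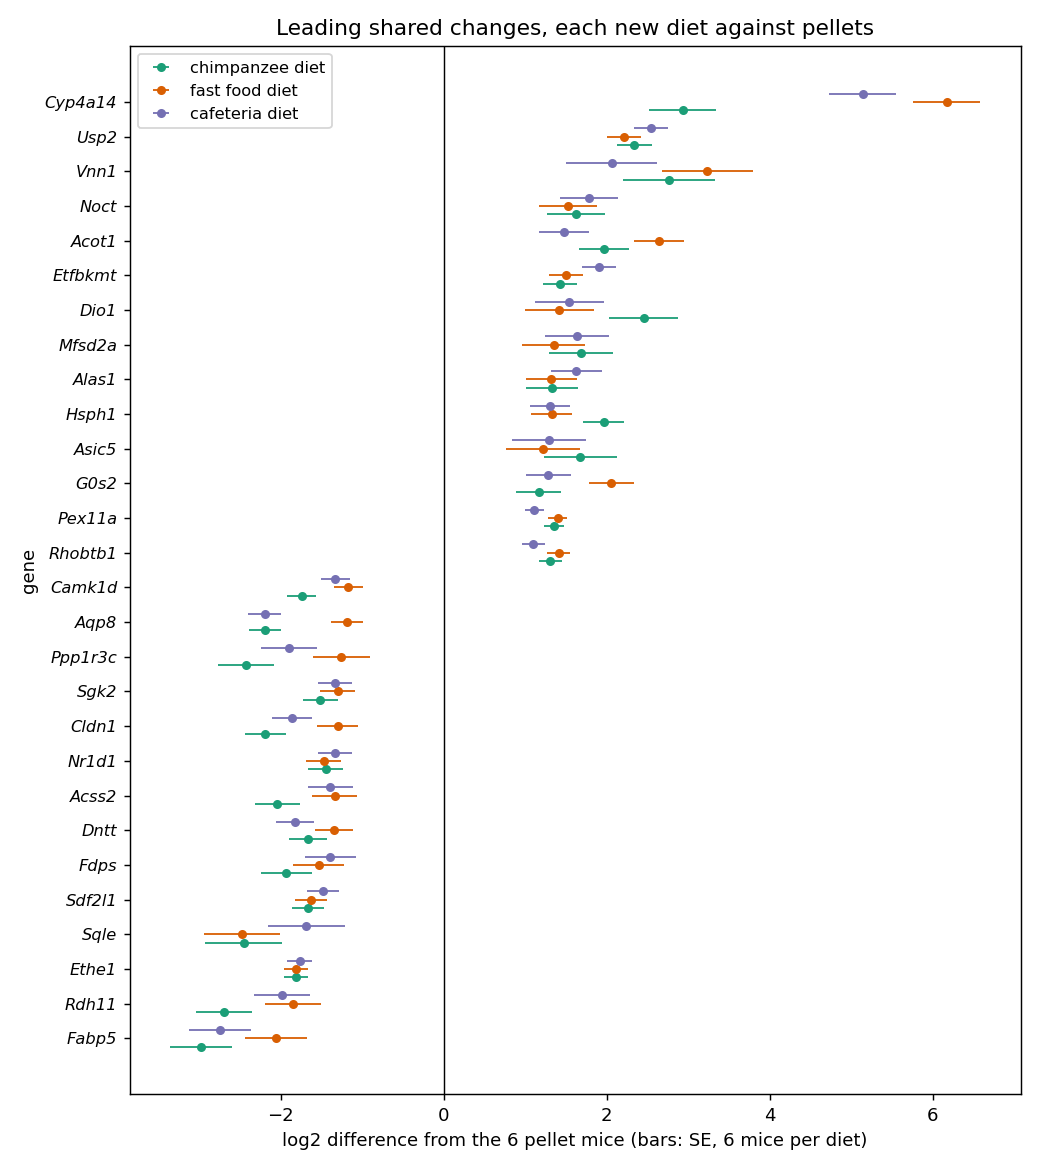
Differences in log2 expression from the 6 pellet mice (x axis) for the 14 leading rises and 14 leading falls (y axis), with 1 point per new diet and bars for the SE. All 3 points of each gene lie on the same side of 0, by the rule that chose them, and the points of Usp2, Ethe1 and Nr1d1 nearly coincide while those of Cyp4a14 spread from 2.93 to 6.17.

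Genes of fatty acid oxidation rose in expression. Of 38 genes measured from the list of PPARA targets and fatty acid oxidation, 23 were called higher and 0 lower, beside 2.32% of all genes called higher. The median difference of the list was 0.41, against −0.00406 over all genes, and 35 members were above 0. Pex11a was the clearest: pellet mice had values of 6.33 to 6.80 (median 6.60) and new diet mice 7.30 to 8.24 (median 7.93), a rise of 1.29 ± 0.11 (adjusted p = 1.99e-08). Eci2, an isomerase needed to burn unsaturated fatty acids, moved from a pellet range of 7.87 to 8.37 to a new diet range of 8.51 to 9.47, a rise of 0.99 ± 0.09 (adjusted p = 8.17e-08). Neither gene overlapped between the groups. Acaa1b, a peroxisomal thiolase, rose by 0.70 ± 0.10, and Cpt1a, the gatekeeper of mitochondrial fatty acid entry, by 0.68 ± 0.10. Slc25a20, Cpt2, Acadm, Acadl, Hadh and Hadhb, which act downstream of it, rose by between 0.27 (Hadh) and 0.55 (Slc25a20). Angptl4, a secreted inhibitor of lipoprotein lipase, rose by 1.17 ± 0.18.

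Cyp4a14 was unlike its neighbours in how far each diet moved it. In pellet mice it lay at 2.88 to 4.01, close to the floor, and in new diet mice at 4.20 to 10.39. The difference was 2.93 on the chimpanzee diet, 6.17 on fast food and 5.14 on cafeteria food, each ± 0.41, and the new diets differed among themselves (limma moderated F, adjusted p = 0.000328). The list medians were 0.26, 0.56 and 0.36 on the chimpanzee, fast food and cafeteria diets, and 3 of its members (Cyp4a14, Acot2 and Ehhadh) differed among the new diets, beside 1.87% of all genes.

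**Figure D3:**
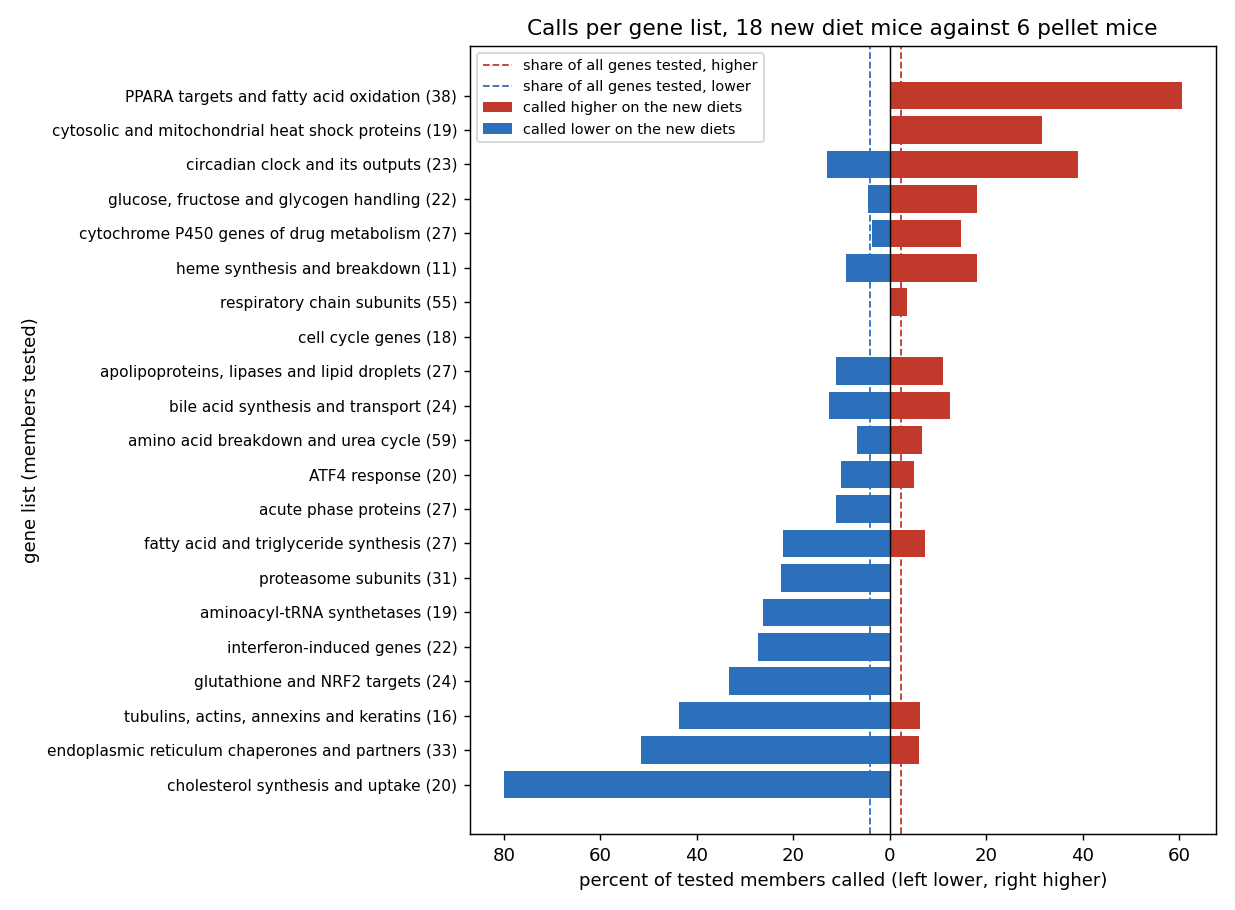
Share of the tested members of each gene list that were called higher (right, red) or lower (left, blue) on the new diets, in percent, with the number tested in brackets after each name and dashed lines at the shares over all genes (2.32% higher and 4.1% lower). The PPARA list (23 of 38) reaches farthest to the right and the cholesterol list (16 of 20) farthest to the left.

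Genes of cholesterol synthesis fell in expression from the first to the last steps of the pathway. Of 20 genes measured, 16 were called lower and 0 higher (4.1% of all genes were called lower), all 20 differences were below 0, and the median was −1.06. At the entry, Hmgcs1, which makes HMG-CoA, lay at 10.93 to 11.48 (median 10.99) in pellet mice and at 8.10 to 10.84 (median 9.65) in new diet mice, without overlap (−1.46 ± 0.26, adjusted p = 0.00044). In the mevalonate steps, Mvk fell by 0.41, Pmvk by 1.32 and Mvd by 1.18 on the log2 scale. Fdps, which makes farnesyl diphosphate, lay at 9.86 to 10.83 in pellet mice and at 7.29 to 9.92 in the others, where 1 cafeteria mouse reached the pellet range. Sqle, the oxidation step that commits to sterols, had pellet values of 7.61 to 8.37 (median 8.15) and new diet values of 3.04 to 7.40 (median 5.98). Lss, Cyp51, Nsdhl, Sc5d, Dhcr7, Tm7sf2, Hsd17b7 and Ebp, which finish the ring, fell by between 0.46 (Ebp) and 1.43 (Cyp51). Srebf2, the gene of the controlling factor, differed by −0.30 ± 0.10 and was not called. With the beta-actin measure as a covariate 9 members were called lower instead of 16, and with any 1 mouse left out 12 to 17 were. None of the 20 differed among the new diets at the threshold, but the median was −1.42 on the chimpanzee diet, −0.85 on fast food and −0.70 on cafeteria food, with the same pellet mice behind all 3 values.

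Genes of fatty acid synthesis moved in the same direction with less uniformity. Of 27 genes, 6 were called lower and 2 higher (beside 4.1% and 2.32% of all genes), with a median of −0.26. Acss2, which activates acetate, fell from a pellet range of 9.58 to 10.51 to a new diet range of 7.68 to 9.73 (−1.59 ± 0.25, adjusted p = 0.000137), and Acly, which splits citrate into acetyl-CoA, by 1.15 on the log2 scale. Pgd, a source of NADPH, fell without overlap in either batch (−1.11 ± 0.18). The rises were Lpin2, a phosphatidate phosphatase (0.64 ± 0.12), and Dgat2, the last step of triglyceride assembly (0.39 ± 0.08). Without FastFood batch 1 replicate 3, 10 members were called lower, as also when the contrast was taken within the fit of 4 diets.

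In lipoprotein and lipid droplet genes, 3 of 27 rose (G0s2, Mfsd2a and Plin5) and 3 fell (Fabp5, Lpl and Pltp), with a median of 0.03. Over all genes, 2.32% were called higher and 4.1% lower. G0s2 moved from a pellet range of 6.09 to 7.14 to a new diet range of 7.0 to 9.34 (1.5 ± 0.27), and Mfsd2a from a pellet range of 4.96 to 6.31 to a new diet range of 5.47 to 8.52 (1.55 ± 0.32, adjusted p = 0.00218). Plin5, which coats lipid droplets at mitochondria, rose by 0.92 ± 0.27. Lpl, the lipase of circulating triglyceride, fell by 0.74 on the log2 scale. With the beta-actin covariate 1 of the 3 falls kept its call.

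Falls outnumbered rises among the folding genes of the ER. Of 33 genes of ER chaperones and their partners, 17 were called lower and 2 higher, with a median of −0.36. The shares over all genes were 4.1% lower and 2.32% higher. Sdf2l1, a partner of the ER Hsp70, lay at 5.77 to 6.69 (median 6.24) in pellet mice and 4.02 to 5.33 (median 4.65) in new diet mice, without overlap, and fell by 1.59 on the log2 scale (SE 0.16, adjusted p = 2.52e-07). The disulfide isomerases Pdia6 (−0.58 ± 0.09), Pdia4 (−0.57 ± 0.09) and Pdia3 (−0.58 ± 0.11) fell by nearly equal amounts. Calr, a lectin chaperone, fell (−0.54 ± 0.09), as did Dnajb11 (−0.67 ± 0.11), Hyou1 (−0.73 ± 0.15) and the secreted survival factor Manf (−0.82 ± 0.22). Hspa5, the ER Hsp70 itself, differed by −0.38 ± 0.14 and was not called. The list count was 6 in batch 1 alone and 5 in batch 2 alone, where 62 genes were called in all.

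Against this trend, Herpud1, a scaffold of ER-associated degradation, rose by 0.81 ± 0.14 (adjusted p = 0.000494) and Dnajb9, a co-chaperone of the same pathway, by 0.88 ± 0.19 (adjusted p = 0.0034). Both rose on each diet: Herpud1 by 1.17, 0.64 and 0.64, and Dnajb9 by 1.18, 0.73 and 0.71, on the chimpanzee, fast food and cafeteria diets. The levels of Herpud1 differed among the new diets (adjusted p = 0.0359), while for Dnajb9 that test gave an adjusted p of 0.409. Derl1 and Derl2, other parts of degradation, fell by 0.36 and 0.47 on the log2 scale.

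The ER stress element, a bipartite promoter motif through which folding stress acts on chaperone genes, was searched as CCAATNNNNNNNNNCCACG on both strands in windows from 250 bases before to 50 after each start site (RefSeq, GRCm38.p6). It occurred in 0.137% of 27025 genes with a window, in 0.158% of the 10746 tested genes with one and in 10 of the 26 ER genes that had one (38.5%). Among the 12 ER genes called lower it was in 4 (33.3%), no more often than in the list. It was present in 4 of 444 genes called lower, and these 4, shown here with the element in capitals, were all members of the ER list. It was present in 0 of 257 genes called higher, a number of genes too small to read a lack from at a share of 0.158%. Pdia6 was printed by the rule for named genes, and Calr, Creld2 and Hsp90b1 were added after their values were seen. The windows are Pdia6 at chr12:17266339-17266638 (plus strand), Calr at chr8:84846882-84847181 (minus strand), Creld2 at chr15:88819396-88819695 (plus strand) and Hsp90b1 at chr10:86705395-86705694 (minus strand), each written 5′ to 3′ along its gene.
Pdia6: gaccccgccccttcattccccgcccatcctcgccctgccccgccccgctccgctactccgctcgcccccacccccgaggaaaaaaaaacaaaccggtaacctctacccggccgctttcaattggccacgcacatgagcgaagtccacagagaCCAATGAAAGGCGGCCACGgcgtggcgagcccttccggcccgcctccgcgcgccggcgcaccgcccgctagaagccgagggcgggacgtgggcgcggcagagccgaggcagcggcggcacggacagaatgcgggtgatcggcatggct
Calr: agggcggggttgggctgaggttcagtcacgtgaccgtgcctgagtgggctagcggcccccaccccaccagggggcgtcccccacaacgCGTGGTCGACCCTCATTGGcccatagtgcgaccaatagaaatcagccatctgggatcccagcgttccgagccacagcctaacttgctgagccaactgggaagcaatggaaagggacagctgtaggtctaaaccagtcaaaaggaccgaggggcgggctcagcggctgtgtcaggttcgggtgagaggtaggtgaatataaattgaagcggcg
Creld2: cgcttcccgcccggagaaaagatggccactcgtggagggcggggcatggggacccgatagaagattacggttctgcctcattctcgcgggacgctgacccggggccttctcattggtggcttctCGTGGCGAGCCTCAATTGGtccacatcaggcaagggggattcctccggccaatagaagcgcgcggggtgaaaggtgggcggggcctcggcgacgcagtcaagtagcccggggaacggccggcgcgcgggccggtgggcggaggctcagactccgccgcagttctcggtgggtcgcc
Hsp90b1: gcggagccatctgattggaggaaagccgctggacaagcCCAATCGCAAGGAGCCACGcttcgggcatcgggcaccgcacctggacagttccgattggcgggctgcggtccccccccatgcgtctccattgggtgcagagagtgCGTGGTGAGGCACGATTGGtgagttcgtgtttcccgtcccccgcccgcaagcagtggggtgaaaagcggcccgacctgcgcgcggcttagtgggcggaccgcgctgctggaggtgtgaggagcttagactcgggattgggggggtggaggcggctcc

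Creld2, an ER protein with the element on the minus strand, fell by 1.49 on the log2 scale (SE 0.29), and Hsp90b1, which holds it on both strands, by 0.33 (SE 0.08). The fall of Hsp90b1 was −0.33 on each of the chimpanzee, fast food and cafeteria diets. A match describes letters in a window. The other 6 ER genes that hold the element (Canx, Derl3, Dnajc3, Ero1b, Hspa5 and Syvn1) were not called.

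Of 19 cytosolic and mitochondrial heat shock genes, 6 were called higher (beside 2.32% of all genes) and 0 lower. The median was 0.21, with 17 members above 0. Hsph1, a nucleotide exchange factor of cytosolic Hsp70, lay at 4.56 to 6.47 (median 5.30) in pellet mice and at 5.86 to 8.35 (median 6.75) on the new diets. It rose by 1.53 ± 0.23 (adjusted p = 8e-05), and within each batch no new diet mouse reached a pellet mouse. Hspa1b, the inducible Hsp70, rose by 1.25 ± 0.27, its co-chaperones Dnajb1 and Dnaja1 by 0.63 ± 0.15 and 0.56 ± 0.10, and the constitutive Hspa8 by 0.37 ± 0.09. The mitochondrial chaperones Hspd1 (0.21 ± 0.08) and Hspa9 (0.21 ± 0.09) were not called. With any 1 mouse left out, 6 or 7 members were called higher.

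The clock genes shifted in part. Of 23 measured clock genes and outputs, 9 were called higher and 3 lower (beside 2.32% and 4.1% of all genes), with a median of 0.20. Nr1d1, which encodes the repressor REV-ERB alpha, lay at 5.64 to 6.78 (median 6.29) in pellet mice and at 4.30 to 5.48 (median 4.82) in new diet mice, without overlap. It fell by 1.45, 1.47 and 1.34 on the log2 scale on the chimpanzee, fast food and cafeteria diets. Of the period and cryptochrome repressors of the clock loop, 3 were called higher: Per1 from a pellet range of 4.15 to 4.59 to a new diet range of 4.36 to 5.56 (0.72 ± 0.12), Per2 by 0.99 ± 0.17 and Cry1 by 0.64 ± 0.12, the latter from a pellet mean of 2.91 that lay below the filter level of 3.15. Cry2 (0.20 ± 0.13) and Per3 (0.00205 ± 0.201) were not called, and Bhlhe40, another repressor, fell by 0.50 on the log2 scale. Wee1, a rhythmic mitotic kinase, rose by 0.93 ± 0.13, and Tef, a rhythmic activator, by 0.52 ± 0.09. Ciart and Nfil3, both repressors, rose by 0.65 ± 0.15 and 0.37 ± 0.11. Of the activators of the loop, Clock fell by 0.35 on the log2 scale. The probe set of Arntl had means of 3.06 and 3.09, below the filter level, so that no change could be read from it. Dbp, a strongly rhythmic output, differed by −0.22 ± 0.15 and was not called. Of the 3 falls, 1 kept its call with the beta-actin covariate and 1 without pellet batch 1 replicate 1. No source used here gives the hour at which each mouse was killed.

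The E-box CACGTG, through which the clock activators act, occurred in 8.09% of all genes with a window, in 11% of those tested, in 18.7% of those called higher and in 15.5% of those called lower. Among clock genes it was present in 5 of 19, of which Per1, Ciart, Cry1 and Tef were called higher. Per1 (chr11:69098699-69098998, plus strand, GRCm38.p6) was printed by the rule, and Ciart (chr3:95882179-95882478, minus strand), with 3 copies, was added after its values were seen. The E-boxes are in capitals.
Per1: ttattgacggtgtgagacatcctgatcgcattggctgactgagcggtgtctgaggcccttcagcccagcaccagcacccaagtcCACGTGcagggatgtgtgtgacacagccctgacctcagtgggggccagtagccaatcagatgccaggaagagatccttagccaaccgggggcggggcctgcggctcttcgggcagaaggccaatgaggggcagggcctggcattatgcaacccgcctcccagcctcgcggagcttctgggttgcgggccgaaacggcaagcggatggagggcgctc
Ciart: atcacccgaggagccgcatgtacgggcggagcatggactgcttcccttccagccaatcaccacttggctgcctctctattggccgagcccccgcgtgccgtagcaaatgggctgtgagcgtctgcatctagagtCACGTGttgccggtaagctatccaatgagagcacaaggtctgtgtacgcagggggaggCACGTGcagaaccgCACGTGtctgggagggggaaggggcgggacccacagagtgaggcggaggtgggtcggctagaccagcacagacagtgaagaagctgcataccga

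A direct repeat of the receptor site for PPARA (AGGTCANAGGTCA) occurred in 0 of 29 windows of the PPARA list and in 0.0481% of all genes, and the sterol regulatory element of the LDL receptor gene in 0 of 16 windows of the cholesterol list and in 0.0999% of all genes. The absence of these exact letters says nothing about the binding of either factor.

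**Figure D4:**
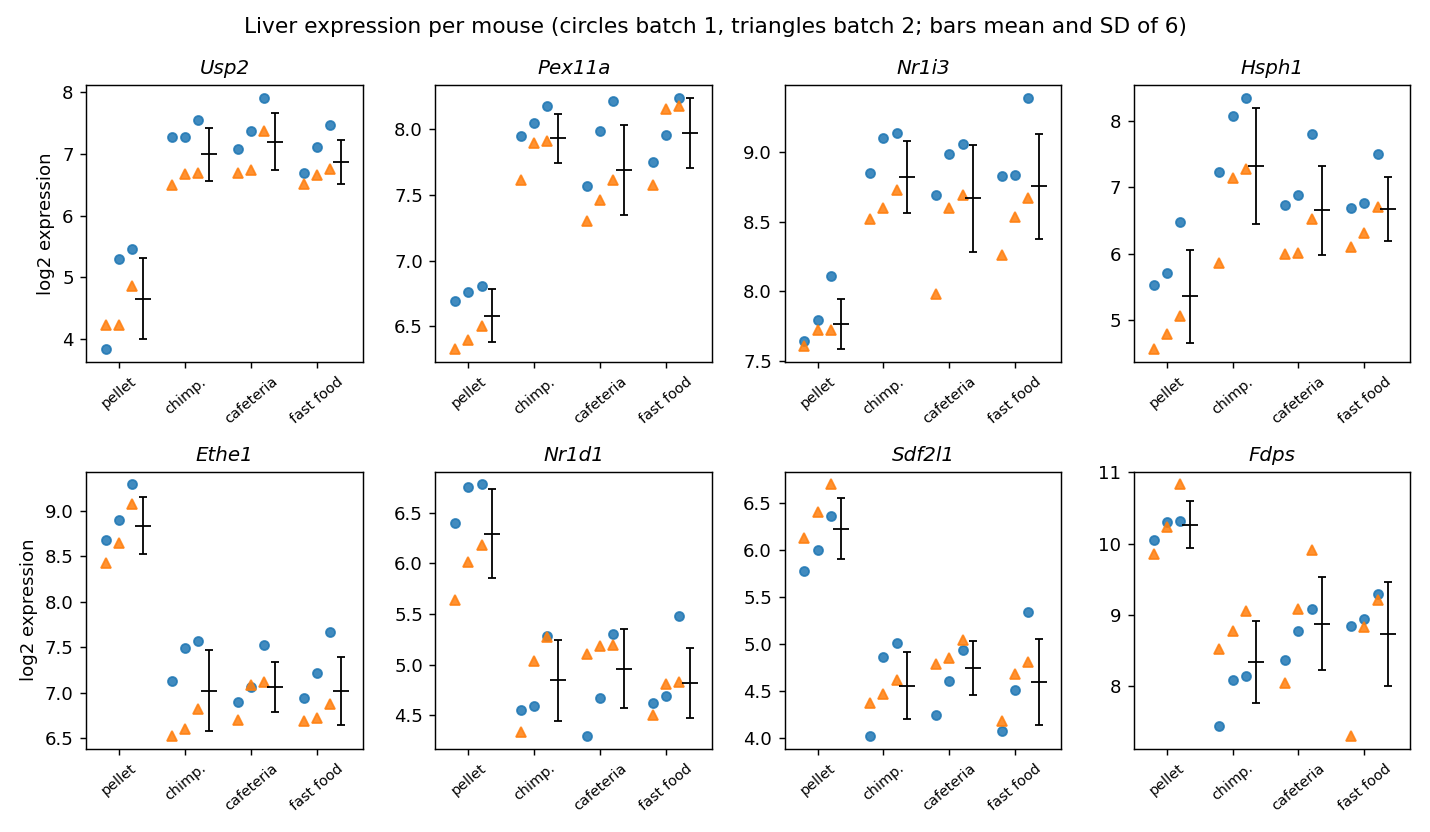
Log2 expression (y axis) of 8 genes in each mouse by diet (x axis), with circles for batch 1, triangles for batch 2 and a bar beside each diet for its mean with the SD (n = 6). Usp2, Pex11a, Ethe1, Nr1d1 and Sdf2l1 show no overlap between the pellet mice and any new diet, while in Nr1i3, Hsph1 and Fdps single new diet mice reach the pellet range when the batches are pooled.

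Both xenobiotic receptor genes of the drug metabolism list rose. Nr1i3, the gene of the xenobiotic receptor CAR, lay at 7.61 to 8.11 (median 7.72) in pellet mice and at 7.98 to 9.39 (median 8.71) on the new diets, a rise of 0.98 ± 0.10 (adjusted p = 5.93e-07) with no overlap within either batch. Nr1i2, the gene of the related receptor PXR, rose by 0.59 ± 0.11. Few of the P450 enzymes that these receptors control were called. Among the 27 listed genes, 4 rose and 1 fell (beside 2.32% and 4.1% of all genes), with a median of 0.06. Besides the receptors, the rises were the enzymes Cyp2c38 (0.59 ± 0.09) and Cyp2b9 (0.27 ± 0.07). Cyp2c55 fell by 0.56 on the log2 scale (with 0 called lower under the beta-actin covariate). These few enzyme calls are not read as a result about the enzymes. Cyp2b10, a CAR target, differed by −1.08 ± 0.49 and was not called. Its levels differed among the new diets (adjusted p = 7.25e-06). Alas1, the rate-limiting step of heme synthesis, rose from a pellet range of 7.24 to 9.73 (median 8.67) to a new diet range of 9.28 to 11.11 (median 10.25), by 1.42 ± 0.25 (adjusted p = 0.000572). Of 11 heme genes, 2 were called higher and 1 lower (beside 2.32% and 4.1% of all genes), with a median of −0.01. Blvrb (0.42 ± 0.09) was the other rise and Ppox the only fall (−0.35 ± 0.09). The new diet mean of Ppox, 4.06, lay within 1 log2 unit of the filter level. Its call was lost without pellet batch 1 replicate 1 (adjusted p = 0.0682).

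Of 24 glutathione and NRF2 target genes, 8 were called lower (beside 4.1% of all genes) and 0 higher, with a median of −0.17. Of these, 5 were glutathione transferases of the mu class: Gstm4 (−0.90 ± 0.15), Gstm3 (−0.85 ± 0.23), Gstm6 (−0.73 ± 0.17), Gstm2 (−0.70 ± 0.19) and Gstm7 (−0.51 ± 0.15). Gstm4 lay at 6.85 to 7.60 in pellet mice and 5.33 to 7.08 in the others. Srxn1, which repairs peroxiredoxins, fell by 0.50 and Gsr, which regenerates glutathione, by 0.28 on the log2 scale. Gclc and Gclm, which make glutathione, differed by −0.27 ± 0.14 and 0.00 ± 0.11 and were not called. The count was 3 with the beta-actin covariate and 3 without pellet batch 2 replicate 3. Mu-class genes are alike in sequence, so their probes may share signal, as may those of Acot1, Cyp4a14, Hspa1b, Tubb2a and Orm1 with their close relatives.

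In sugar handling the subunits that target phosphatase to glycogen moved in opposite directions. Ppp1r3b, the main liver subunit, lay at 6.63 to 7.91 (median 7.48) in pellet mice and 7.92 to 9.64 (median 8.81) on the new diets (1.40 ± 0.19, adjusted p = 1.85e-05). Ppp1r3c lay at 7.75 to 8.43 (median 7.97) and 4.41 to 7.32 (median 6.4; −1.86 ± 0.33, adjusted p = 0.000562). Neither overlapped. Of 22 genes, 4 rose and 1 fell (beside 2.32% and 4.1% of all genes), with a median of 0.05. The other rises were Gys2, liver glycogen synthase (0.39 ± 0.10), Pck1, which commits carbon to glucose synthesis (0.72 ± 0.13), and Foxo1, a transcription factor restrained by insulin (0.66 ± 0.12). Igfbp1 differed by 1.40 ± 0.50 and was not called, and G6pc by −0.29 ± 0.25.

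Of 59 amino acid breakdown and urea cycle genes, 4 were called higher and 4 lower (13.6%, against 6.43% of all genes), with a median of 0.03. Besides Ethe1, the falls were Gldc of the glycine cleavage system (−0.90 ± 0.16), Hal, which opens histidine breakdown (−0.73 ± 0.14), and Cbs of transsulfuration (−0.65 ± 0.16). Ahcy, which clears S-adenosylhomocysteine, rose from a pellet range of 10.71 to 11.24 to a new diet range of 10.99 to 11.81 (0.39 ± 0.09), and Aass, Aldh4a1 and Sardh by between 0.30 and 0.45. The rises numbered 1 without pellet batch 1 replicate 1, and 2 without batch 1 replicate 3 or batch 2 replicate 1. The falls numbered 8 within the fit of 4 diets.

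Cebpb, a bZIP transcription factor listed with the ATF4 response, rose from a pellet range of 6.35 to 7.18 (median 7.03) to a new diet range of 7.27 to 8.90 (median 7.94) without overlap (1.07 ± 0.16, adjusted p = 0.000108). Of the 20 measured genes of that list, 1 was called higher and 2 lower (beside 2.32% and 4.1% of all genes), with a median of −0.05. These few calls are not read as a result about the list. The falls were Trib3, a pseudokinase, by 0.62 on the log2 scale, and Atf5, and the rest were not called. The asparagine synthetase Asns differed by −0.03 ± 0.06. Of 19 aminoacyl-tRNA synthetases, which load amino acids for translation, 5 were called lower (beside 4.1% of all genes) and 0 higher, with a median of −0.25. Tars, for threonine, lay at 7.82 to 8.73 in pellet mice and 6.49 to 7.64 on the new diets, without overlap (−0.99 ± 0.14), and Lars, for leucine, fell by 0.68 on the log2 scale. The count was 2 without pellet batch 1 replicate 1, 3 without batch 1 replicate 3 or batch 2 replicate 3, and 3 with the beta-actin covariate.

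Bile and sterol export genes of the canalicular membrane did not move alike. Abcg5 and Abcg8, the subunits of the sterol exporter, rose by 0.60 ± 0.11 and 0.47 ± 0.14, and Abcb4, the phospholipid exporter, by 0.48 ± 0.11, while Abcb11, the bile salt exporter, fell by 0.52 on the log2 scale. Hsd3b7 of bile acid synthesis fell from a median of 10.35 to one of 9.65 (−0.60 ± 0.10), and Klb, a co-receptor for FGF hormones, by 0.62. Cyp7a1, the rate-limiting enzyme of bile acid synthesis, differed by −0.10 ± 0.25. With 3 of 24 genes up, 3 down and a median of 0.07, the list had no common direction (all genes: 2.32% higher, 4.1% lower). With the beta-actin covariate 1 of the 3 rises kept its call.

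Of 16 cytoskeletal genes, 7 were called lower and 1 higher (Krt23), beside 4.1% and 2.32% of all genes, with a median of −0.30. S100a10, a partner of annexin A2, lay at 8.65 to 9.01 in pellet mice and 7.04 to 8.42 on the new diets (−1.21 ± 0.14, adjusted p = 3.71e-06), and Tubb5, a beta-tubulin, at 6.46 to 6.87 and 5.54 to 6.45. Both were without overlap. Krt18, an epithelial keratin, fell by 0.73 and beta-actin (Actb) by 0.35 on the log2 scale. With the beta-actin 3′ to 5′ measure as a covariate the falls numbered 4. The rise of Krt23 was not called in 5 of the fits with a pellet mouse left out, which are given with its values by diet.

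Proteasome subunits build the protease that degrades tagged proteins. Of 31 measured, 7 were called lower (beside 4.1% of all genes) and 0 higher, all 31 differences were below 0, and the median was −0.21. Psmc4, an ATPase of its cap, lay at 6.95 to 7.56 in pellet mice and 6.60 to 7.16 on the new diets (−0.37 ± 0.07, adjusted p = 0.0015), and Psmc5 and Psmd2 fell by 0.37 and 0.30. The count was 13 after quantile normalization, 14 after cyclic loess, 1 with the beta-actin covariate, 3 without pellet batch 1 replicate 1 or batch 2 replicate 3 and 4 without batch 2 replicate 2. Psmd11 was called from its probe set of highest signal (−0.43 ± 0.10), whereas other probe sets of that gene differed in sign. Respiratory chain subunits had 51 of 55 differences above 0 and a median of 0.11. Of them 2 were called higher, a share (3.64%) near the 2.32% of all genes. Their count was 12 after quantile normalization, 11 after cyclic loess, 10 with the 90th percentile as a covariate and 7 with the beta-actin covariate. With 1 mouse left out the calls ran from 0 to 5, and 14 of the 24 omissions moved them by over 1.5 times.

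Of 22 interferon-induced genes, 6 were called lower (beside 4.1% of all genes) and 0 higher, with 21 differences below 0 and a median of −0.36. Usp18, which restrains interferon signalling, lay at 4.49 to 5.51 (median 5.01) in pellet mice and 3.31 to 5.77 (median 3.81) on the new diets, so that a new diet mouse exceeded every pellet mouse (−1.07 ± 0.25, adjusted p = 0.00754). Rtp4 (−0.67 ± 0.16) and Bst2 (−0.49 ± 0.13), both interferon-induced, fell too, and 11 members were called without HumanCafe batch 2 replicate 1. The interferon list had medians of −0.30 in batch 1 and −0.40 in batch 2. Kupffer cell markers also lay mostly below 0, and whether they moved together with the interferon genes was not tested. Of 12 markers of these resident macrophages 0 were called by limma, yet 8 had an unadjusted p under 0.05 and 11 differences were below 0, and the median difference was −0.44 (batch 1 gave −0.12, batch 2 −0.75). Their summed level ran from 10.09 to 10.98 in pellet mice and from 8.94 to 10.91 in new diet mice. The markers Clec4f and Vsig4 differed by −0.52 ± 0.21 and −0.74 ± 0.34, Adgre1 by −0.08 ± 0.10 and Marco by 0.17 ± 0.14. The part of these cells in the interferon result was not tested.

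Acute phase proteins had 3 of 27 called lower (11.1%, beside 4.1% of all genes) and 0 higher, with a median of −0.09. Orm1, a plasma carrier, lay at 10.79 to 11.13 in pellet mice and 9.87 to 10.74 on the new diets without overlap (−0.46 ± 0.10), and Orm2 and Apcs fell by 0.83 and 0.48. The inflammatory Saa1 and Saa2 differed by −0.51 ± 0.34 and −0.53 ± 0.31. After quantile normalization or cyclic loess 6 members were called lower. Of 18 cell cycle genes 0 were called by limma and 3 had an unadjusted p under 0.05, with Mki67, a mark of dividing cells, at −0.32 ± 0.10. Markers of stellate cells (0 of 12), cholangiocytes (0 of 3), lymphocytes (0 of 8), neutrophils (0 of 7), erythroid cells (0 of 3), adipocytes (0 of 3) and exocrine pancreas (0 of 6) were not called by limma, and 1 stellate, 1 lymphocyte and 1 neutrophil marker had an unadjusted p under 0.05. All neutrophil and pancreas markers had a group mean below the filter level or within 1 log2 unit above it, where a fall could hardly be seen. The same held for the cholangiocyte, erythroid and adipocyte markers except Epcam, Alas2 and Fabp4. Of 12 sinusoidal endothelial markers, Eng was called lower (−0.25 ± 0.07, adjusted p = 0.0412), and 11 of the 24 fits with a mouse left out lost that call (adjusted p up to 0.145).

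Some genes also differed among the new diets. Between them, 250 genes (1.87%) differed at an adjusted p under 0.05 by limma's moderated F. Its contrast leaves the pellet mice out, though they enter the fit and its variance. Of the 860 called genes, 28 were among these 250 (3.26% of the called genes and 11.2% of the 250). This second count ran from 107 to 586 with a mouse left out and was 21 with the beta-actin covariate, so it was less stable than the count against pellets. The median differences of the called rises were 0.52, 0.47 and 0.52, and those of the called falls −0.58, −0.42 and −0.50, on the chimpanzee, fast food and cafeteria diets. These medians share the 6 pellet mice and the genes were called on the mean of the same 3 diets, so that their likeness follows in part from the choice of genes and is no result.

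Some called genes took part of their difference from certain diets. Atf5, a stress-responsive activator, had chimpanzee diet values of 7.78 to 8.82 beside pellet values of 8.24 to 9.12, but fast food values of 6.46 to 7.97 and cafeteria values of 6.39 to 8.13. The differences were −0.15, −1.48 and −1.38 (each ± 0.19; difference among new diets, adjusted p = 0.000456). Krt23, a keratin of stressed liver, followed the same split upward: 0.13 on the chimpanzee diet, 1.63 on fast food and 1.30 on cafeteria food (each ± 0.19; adjusted p = 0.000222). For both genes the chimpanzee mice overlapped the pellet mice, and their pooled calls (adjusted p = 0.0294 for Atf5 and 0.0336 for Krt23) were lost without pellet batch 1 replicate 1 or 3 or without batch 2 replicate 1, 2 or 3, with adjusted p up to 0.0767 and 0.124.

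Fasn, the fatty acid synthase, fell by 0.49 on the chimpanzee diet, 0.95 on fast food and 1.89 on cafeteria food on the log2 scale (SE 0.24; difference among new diets, adjusted p = 0.00579). Its pooled call (adjusted p = 0.0207) was lost without pellet batch 1 replicate 1 or 2 or batch 2 replicate 3, with adjusted p up to 0.0761. Ppp1r3b rose most on the chimpanzee diet (1.82) and least on cafeteria food (0.89), with 1.5 on fast food (SE 0.14; adjusted p = 0.00217). Aqp8 fell by 2.19 on the chimpanzee diet and 2.20 on cafeteria food but by 1.19 on fast food (SE 0.20; adjusted p = 0.00715). Slc44a1, a choline transporter, fell by 1.02 on the chimpanzee diet and differed by −0.19 on fast food and −0.60 on cafeteria food (SE 0.15; adjusted p = 0.0126), and 12 of the 24 fits with a mouse left out lost its pooled call. Rad51b, a recombination protein, differed by 0.62, 1.95 and 0.85 on the chimpanzee, fast food and cafeteria diets (SE 0.29; adjusted p = 0.0276), and S100a10 by −1.50, −0.90 and −1.23 (SE 0.13; adjusted p = 0.0359). The pooled call of Rad51b was lost in 5 fits with a pellet mouse left out (adjusted p up to 0.0903).

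**Figure D5:**
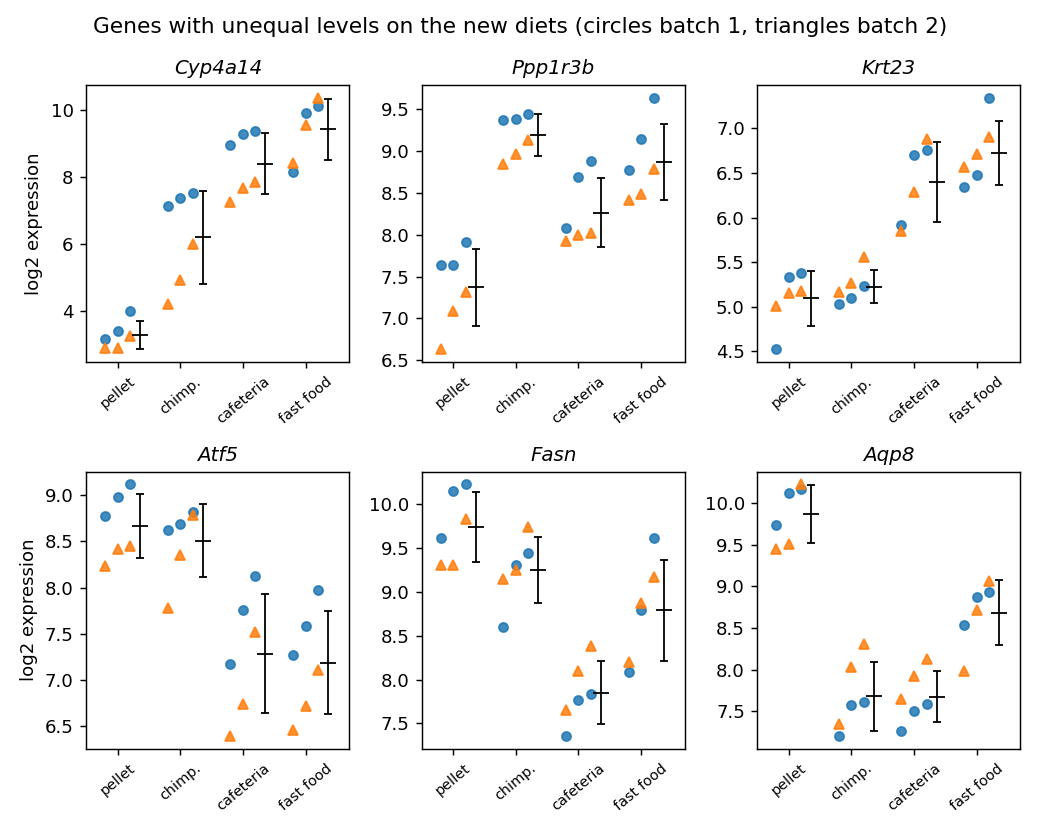
Log2 expression (y axis) of 6 genes in each mouse by diet (x axis), with circles for batch 1, triangles for batch 2 and a bar beside each diet for its mean with the SD (n = 6). For Krt23 and Atf5 the chimpanzee diet mice overlap the pellet mice, whereas for Cyp4a14, Ppp1r3b and Aqp8 every new diet mouse lies on 1 side of the pellet mice.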

How the data were processed

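Liver RNA was measured on Affymetrix mouse genome arrays, 1 per mouse. The authors deposited log2 expression per probe set. Their methods name the robust multichip average of the package affy, whose version is not stated in these sources. They describe a quantile normalization, but the deposited arrays did not share 1 distribution, so whether this step was applied to these values is not known. The 90th percentile ran from 6.42 to 6.62 in batch 1 and from 5.67 to 6.35 in batch 2, and this was kept as deposited and varied in the alternatives. Brain arrays of the same animals were not analysed here.

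Of 45101 probe sets, 64 were controls. Platform annotation gave 1 symbol for 34945, several for 932 and none for 9160, and 34741 matched a RefSeq gene by Entrez identifier. A probe set was kept when it exceeded 3.15, the median over the whole table, on 6 or more arrays (25541 kept), and a gene was its probe set of highest mean (13384 genes). New diets minus pellets was fitted with batch in limma 3.58.1 (R 4.3.3; lmFit, eBayes), two-sided, with Benjamini-Hochberg adjustment over all genes. Differences of single diets and the moderated F among new diets came from a fit with 4 diets. Levels of marker lists were summed on the linear scale and given as log2. The number of arrays limits the precision. Litters were spread over diets but are not in the labels, so litter is in no fit. The fits were tested on simulated data.

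Named genes were, among called genes of 1 direction in both batches and all diets, the 14 rises and 14 falls with the largest value of their smallest diet difference, up to 4 called members per list of smallest p, and, among called genes that differed among the new diets, the 4 rises and 4 falls of widest range. Clones, predicted genes and probe sets of several symbols were left out. Other list members are given to describe their list, and were chosen after their values were seen. The comparison and the 31 lists (633 of 719 symbols tested) were chosen with earlier results of these data known. Alternatives comprised other normalizations, covariates, filters, probe set rules, batches, sets of mice and variance models, the methods' linear model at an unadjusted p of 0.01, and each mouse left out. Same-numbered mice of a batch did not deviate together (36 pairs, correlations −0.635 to 0.407, 12 over 0.1), so the replicate number was not taken as a pairing.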

Additional observations from a re-analysis of the deposited data

Results flagged for a closer look

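Of 388 groups of 6 mice examined (each diet, for the named genes and the array measures), 25 held a mouse set apart from the other 5 by Dixon's test, where chance gives about 1 in 20. Of these, 17 were the same animal, FastFood batch 2 replicate 2, whose array was among the 4 of lowest 90th percentile, and it lay below its group each time. Its log2 values were 5.48 for Etfbkmt, 3.98 for Rdh11, 3.04 for Sqle, 7.29 for Fdps, 5.13 for Sgk2, 5.69 for Ppp1r3c, 8.51 for Eci2, 5.28 for Lss, 7.94 for Pdia6 and 4.86 for Pgd. It also had 6.07 for Gstm6, 8.13 for Abcb4, 8.00 for Psmd11, 8.83 for Dnaja1, 5.97 for Chordc1, 6.58 for Tars and 3.76 for Rad51b. Without this mouse 877 genes were called against pellets, 825 of them among the 860, and 499 differed among the new diets. The remaining flags were Rhobtb1 at 8.41 and Ahcy at 11.54 in FastFood batch 1 replicate 3, Nr1d1 at 5.48 in FastFood batch 1 replicate 1, and Nr1i3 at 8.11 in Pellet batch 1 replicate 2. Ahcy was at 10.99 in Chimpanzee batch 2 replicate 3, Psmd4 at 8.65 in Chimpanzee batch 1 replicate 3 and at 7.83 in HumanCafe batch 2 replicate 3, and Nars at 7.34 in that last mouse.

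Named genes whose distance from pellets differed among the new diets, by limma's moderated F with adjustment over all genes, were 9 in number. The adjusted p was 0.000328 for Cyp4a14, 0.00715 for Aqp8, 0.000456 for Atf5, 0.00217 for Ppp1r3b and 0.0359 for S100a10. It was 0.000222 for Krt23, 0.0276 for Rad51b, 0.00579 for Fasn and 0.0126 for Slc44a1.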

How the results depend on the processing

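All 94 named genes kept their direction under every alternative in which they were tested, and 80 were called with each of the 24 mice left out in turn. The genes were chosen from calls on these same mice, so the kept direction follows in part from that choice and is no independent result. Calls were lost by 22 in batch 1 alone, 71 in batch 2 alone, 19 without batch in the fit and 14 with the beta-actin covariate.

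The 860 calls against pellets became 1295 after quantile normalization, 1388 after cyclic loess, 1531 with the 90th percentile as covariate, 552 with the beta-actin covariate, 1446 with array weights, 376 without batch, 62 in batch 2 alone and 1439 of 14272 by the methods' procedure (953 after Benjamini-Hochberg adjustment at 0.05). The 250 genes differing among the new diets became 574, 640, 701, 21, 1183, 36, 0 and 868 under the same settings, and 84 in batch 1 alone (limma throughout except the methods' procedure). In batch 2 alone 530 genes had an unadjusted p under 0.05 in that comparison. With 1 mouse left out the first count ran from 573 (without Pellet batch 1 replicate 1) to 1036, and the second from 107 (Chimpanzee batch 1 replicate 2) to 586 (HumanCafe batch 2 replicate 3). The second also moved by over 1.5 times without Chimpanzee batch 1 replicate 1 (164) or 3 (133), Chimpanzee batch 2 replicate 1 (135) or 2 (120), FastFood batch 2 replicate 2 (499) or 3 (143), or HumanCafe batch 1 replicate 2 (160).

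With batch and replicate number as a replicate block, 807 genes were called (777 of the 860) and 191 differed among the new diets. The 3′ over 5′ signal of pyruvate carboxylase was 0.22 higher on the new diets, and reversed to −0.00659 in batch 1. The causes were not tested. Signal near the array floor limits the differences of 150 called genes.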
